A study of Mus musculus with 23 samples.

Results

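Interferon-gamma responsive genes, 10 of the 36793 genes in the deposited tables, were followed through all 23 RNA-seq libraries of a mouse study of head and neck squamous carcinoma. The 10 members are 2 chemokines (Cxcl9 and Cxcl10), the transcription factor Irf1, 4 guanylate-binding proteins (Gbp2, Gbp3, Gbp5 and Gbp7) and 3 immunity-related GTPases (Irgm1, Igtp and Iigp1). They were taken by gene symbol, matched to the Ensembl gene identifiers of the deposited tables, and all 10 were found. Each level below is in normalised counts (CPM) scaled by the trimmed mean of M-values, unless it is given in TPM, a scale that also divides by transcript length. A gene is said to rise or fall where the adjusted p of edgeR's quasi-likelihood test over all genes tested was under 0.05.

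The study compared macrophages, tumour cells and colonies from 3 implanted tumour models. HPV+ MEER and HPV- MEER are mouse epithelial tumour lines grown under the skin of C57/Bl6 mice, and SCCVII is an HPV-negative squamous carcinoma line grown in C3H/HeJ mice. Macrophages were sorted from the tumours as CD45+CD11b+Gr1-F4/80hi cells, with 3 libraries per model and each library pooled from 3 to 4 mice. Each line was also grown in vitro and sequenced as 3 aliquots, and sorted macrophages kept for 9 days in stem cell medium gave colonies from HPV- MEER (3 libraries) and SCCVII (2 libraries). The 3 lines are each a single line, so HPV status is carried by 1 line in each state. SCCVII differs from MEER in line and in mouse strain together, and these cannot be told apart. The labels name no interferon treatment.

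Interferon-gamma, made mainly by T cells and natural killer (NK) cells, binds a receptor of Ifngr1 and Ifngr2 chains, and the kinases Jak1 and Jak2 carry the signal on. Genes with GAS elements, Irf1 among them, are then switched on, and the Irf1 product binds ISRE-type elements in many later genes. Macrophages are strong responders: they release Cxcl9 and Cxcl10, which attract T cells bearing Cxcr3, and load GTPases of the guanylate-binding and immunity-related families onto the vacuoles of intracellular microbes.

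Members lie in a few clusters of the mouse genome (GRCm38, GENCODE M21). Cxcl9 (ENSMUSG00000029417) is at chr5:92321347-92328079 and Cxcl10 (ENSMUSG00000034855) at chr5:92346638-92348889, both on the minus strand. Gbp5, Gbp7 (ENSMUSG00000040253), Gbp3 (ENSMUSG00000028268) and Gbp2 (ENSMUSG00000028270) follow one another on the plus strand of chromosome 3, from 142493978 to 142638008. Irgm1 (ENSMUSG00000046879), Irf1 (ENSMUSG00000018899) and Igtp (ENSMUSG00000078853) are on chromosome 11, and Iigp1 (ENSMUSG00000054072) lies apart from all of these. The deposited row used for Gbp5 carries the identifier ENSMUSG00000040264, which GENCODE M21 gives to Gbp2b. Its only transcript belongs to Gbp5 in that release, so the row was taken as Gbp5.

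RefSeq upstream windows (GRCm38.p6, 250 bases before each annotated start) were found for 9 of the 10 members, with a second start for Gbp3 and for Irf1 (11 windows). The ISRE-type letters GAAA, any 2 bases and GAAA, read on both strands like all 3 motifs, stood in 7 of the 9 (Cxcl10, Gbp2, Gbp3, Gbp5, Gbp7, Irgm1 and Igtp) and in 2.98% of 32851 windows genome-wide. GAS letters TTCNNNGAA stood in 4 of the 9 (Irf1, Igtp, Gbp5 and Gbp7) and in 7.02% of all windows. NF-kB-type letters (GGGA, any base, TT, any base, CC) stood in Cxcl10 and Gbp5, and in 0.98% of all windows. Where 2 matches shared bases, as in Gbp3 and Irgm1, the window was counted once. These are matches of letters and not measured binding. The windows below are shown because they hold the arrangements that set the members apart, with each match in capitals: a GAS match alone (Irf1), GAS followed closely by ISRE-type (Igtp), a pair of GAS matches and 1 ISRE-type match (Gbp7), ISRE-type and then NF-kB-type (Cxcl10), and none of the 3 (Cxcl9). They are chr11:53769864-53770013 for Irf1, chr11:58199406-58199555 for Igtp and chr3:142530186-142530335 for Gbp7 on the plus strand (150 bases each). Cxcl10 is chr5:92348890-92349139 and Cxcl9 chr5:92328080-92328329 on the minus strand (250 bases each). All are written 5′ to 3′.
Irf1: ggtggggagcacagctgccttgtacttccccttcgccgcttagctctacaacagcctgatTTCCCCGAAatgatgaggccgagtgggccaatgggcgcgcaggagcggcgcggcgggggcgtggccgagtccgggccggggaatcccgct
Igtp: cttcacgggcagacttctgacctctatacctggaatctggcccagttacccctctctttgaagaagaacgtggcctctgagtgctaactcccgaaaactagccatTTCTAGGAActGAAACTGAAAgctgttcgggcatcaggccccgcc
Gbp7: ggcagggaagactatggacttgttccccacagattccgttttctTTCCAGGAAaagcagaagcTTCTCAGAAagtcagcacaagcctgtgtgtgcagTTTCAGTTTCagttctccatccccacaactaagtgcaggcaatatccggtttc
Cxcl10: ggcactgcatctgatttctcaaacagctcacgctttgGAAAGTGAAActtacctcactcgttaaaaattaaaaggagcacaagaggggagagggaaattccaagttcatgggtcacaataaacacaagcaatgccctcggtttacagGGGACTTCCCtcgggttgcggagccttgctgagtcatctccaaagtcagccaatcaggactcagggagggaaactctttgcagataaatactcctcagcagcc
Cxcl9: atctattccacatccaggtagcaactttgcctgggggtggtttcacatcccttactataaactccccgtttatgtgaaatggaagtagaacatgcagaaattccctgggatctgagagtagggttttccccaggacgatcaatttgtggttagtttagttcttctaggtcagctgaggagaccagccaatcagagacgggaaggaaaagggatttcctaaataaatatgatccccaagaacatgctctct

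In the Igtp window the GAS match began 45 bases before the start and the ISRE-type match 34 bases before it. In Irf1 the GAS match began 90 bases before the start, and its second window held no match.

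Total counts ran from 26848759 to 47609481 per library, and 3 counts corresponded to 0.063 to 0.1117 CPM. The 8 macrophage markers summed to 9310 to 13070 CPM in every sorted library, 14.0 to 36.6 CPM in the lines, 34.8 to 3198 CPM in HPV- MEER colonies and 152 to 1189 CPM in SCCVII colonies. In the SCCVII line the 7 epithelial genes summed to 1008 to 1101 CPM, though 3 of them, Krt5, Krt14 and Epcam, were at 0. The same list summed to 367 to 601 CPM in the HPV- MEER line and 1498 to 2015 CPM in the HPV+ MEER line. In the SCCVII line 6 fibroblast genes summed to 2660 to 2793 CPM. HPV- MEER macrophage library 4 stood apart in its group, with 75.0 CPM of fibroblast genes against 14.1 and 13.2 CPM. Changes of members between HPV- MEER macrophages and those of the other models are given with and without it. HPV- MEER colonies came in a table of their own, so that table and that group cannot be told apart. In these bulk samples fewer expressing cells and less RNA per cell cannot be told apart.

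All 10 members were highest in macrophages. On the per-length scale they summed to 726 to 1178 TPM in HPV- MEER macrophages, 990.2 to 1158 TPM in HPV+ MEER macrophages and 549 to 640 TPM in SCCVII macrophages. In the lines the sums were 101 to 123, 45.7 to 67.7 and 123 to 135 TPM in the same order, and in colonies 168 to 233 TPM (HPV- MEER) and 67.8 to 126 TPM (SCCVII). The make-up of the sum also differed. In TPM, Cxcl10 was the leading member in HPV- MEER macrophages (27.8% of the sum, range 27.0 to 28.5) and SCCVII macrophages (27.1%, 25.5 to 28.3), and Gbp2 led in HPV+ MEER macrophages (20.8%, 20.1 to 21.5). In the lines Irgm1 and Irf1 made up most of the sum: Irgm1 made up 58.2% in the HPV- MEER line, and Irf1 49.2% in the SCCVII line. In the HPV+ MEER line Irf1 made up 37.5%, and Cxcl10 (25.7%) came before Irgm1 (24.4%).

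**Figure D1:**
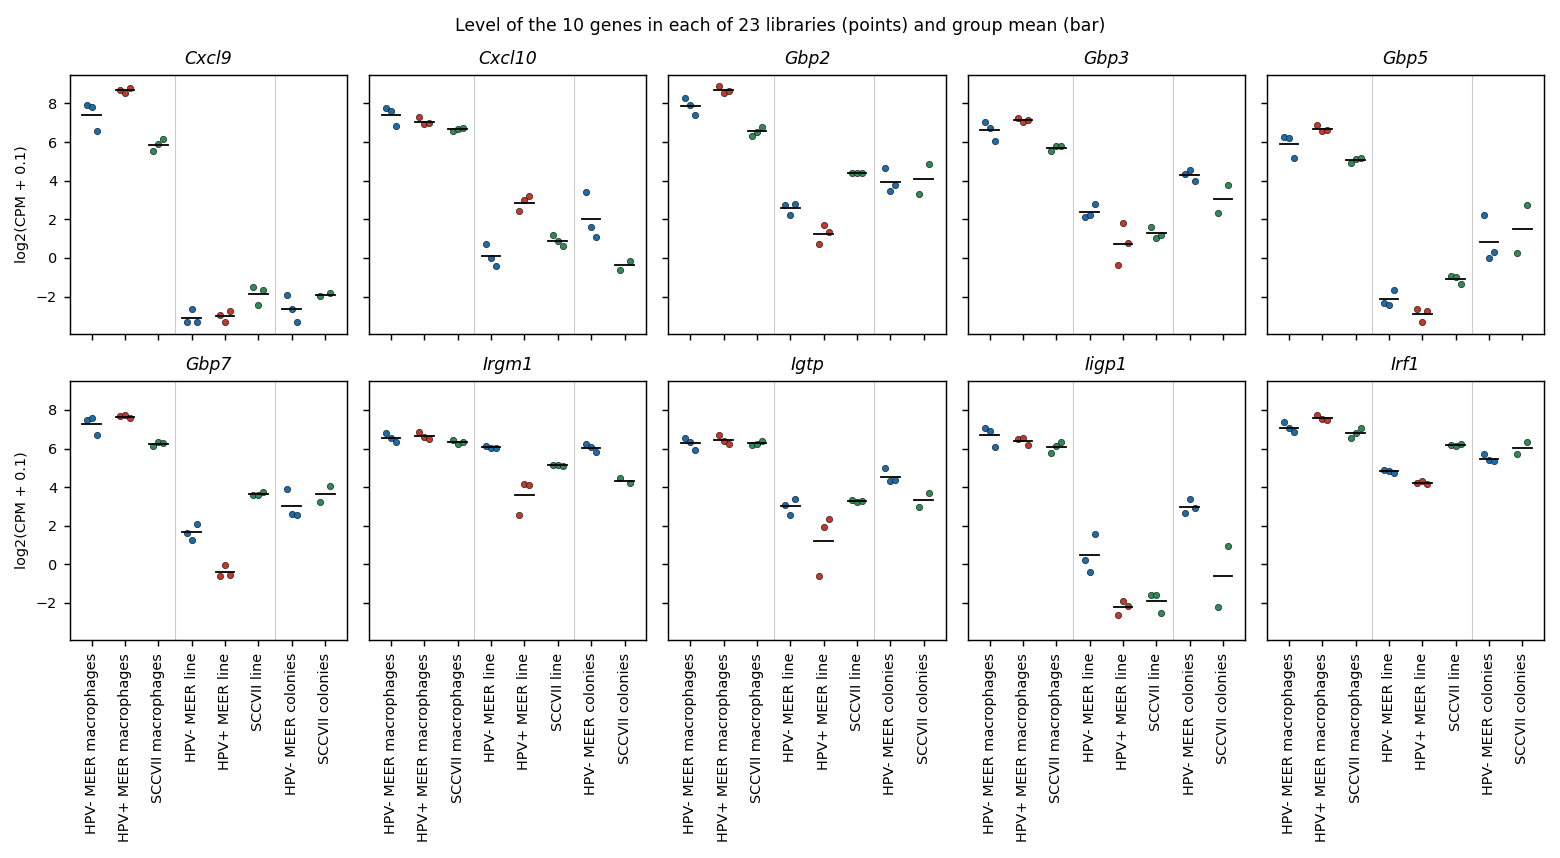
Level of each member, as log2(CPM + 0.1), in the 23 libraries. Points are libraries, the bar is the mean of the plotted values, and colours mark the tumour model. Every macrophage library lies above every line and colony library of its own model for all 10 genes, and Irgm1 and Irf1 have the narrowest gaps.

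Cxcl9, the chemokine most closely tied to interferon-gamma, stood at 239, 224 and 95.3 CPM in HPV- MEER macrophages (libraries 1, 2 and 4), at 410.4, 378 and 442 CPM in HPV+ MEER macrophages, and at 46.4, 58.8 and 72.0 CPM in SCCVII macrophages. The 3 groups did not overlap, and library 4 was the low one of the HPV- MEER group. Cxcl9 was higher in HPV+ than in HPV- MEER macrophages by 1.17 ± 0.29 log2 units (SE, adjusted p = 0.009), and lower in SCCVII than in HPV- MEER macrophages by a log2 change of -1.67 ± 0.3 (adjusted p = 0.002). Without library 4 the HPV difference was 0.86 ± 0.14 (adjusted p = 0.00077) and the SCCVII change -1.98 ± 0.14 (adjusted p = 2.8e-06).

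Cxcl10 took another order. It was at 220.2, 193 and 116 CPM in HPV- MEER macrophages, 155, 120.5 and 128 CPM in HPV+ MEER macrophages and 94.6, 102 and 107 CPM in SCCVII macrophages. HPV+ and HPV- MEER libraries overlapped, with a log2 change of -0.36 ± 0.2 (adjusted p = 0.16), so no difference was called. Without library 4 of HPV- MEER, Cxcl10 fell by 0.59 ± 0.1 on the log2 scale in HPV+ MEER macrophages (adjusted p = 0.001). SCCVII macrophages were lower than HPV- MEER macrophages by a log2 change of -0.82 ± 0.2 (adjusted p = 0.0097), a call that ended with all 23 libraries in 1 edgeR fit (-0.8 ± 0.42, adjusted p = 0.23). Without library 4 of HPV- MEER the SCCVII change was -1.04 ± 0.1 (adjusted p = 2.8e-05).

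Set against each other in TPM, the 2 chemokines separated the models. The ratio of Cxcl9 to Cxcl10 was 0.386, 0.411 and 0.283 in HPV- MEER macrophages, 0.906, 1.09 and 1.2 in HPV+ MEER macrophages, and 0.169, 0.203 and 0.239 in SCCVII macrophages. The ranges did not overlap. A ratio within a library does not depend on how libraries are scaled to each other.

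**Figure D2:**
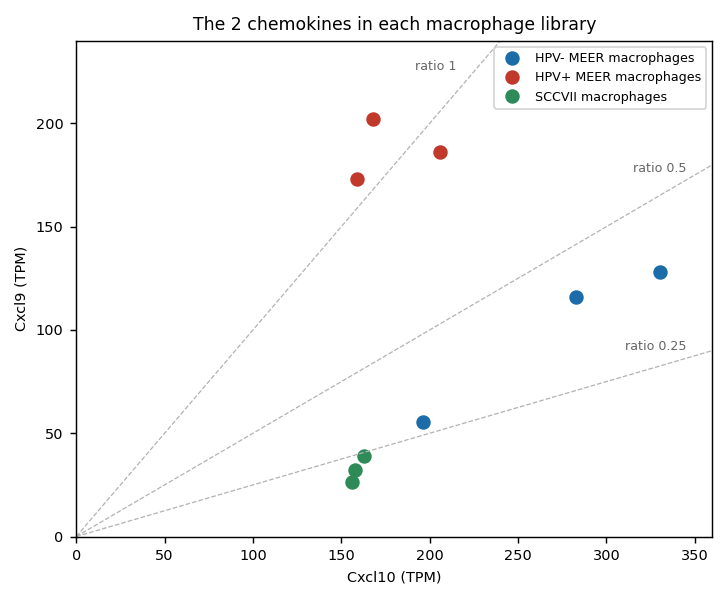
Cxcl9 against Cxcl10 in TPM, 1 point for each of the 9 macrophage libraries, with dashed lines of equal ratio. HPV+ MEER libraries lie near a ratio of 1 (0.906 to 1.2) and SCCVII libraries below 0.25 (0.169 to 0.239).

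Among the guanylate-binding proteins, Gbp2, which attacks the vacuoles of intracellular parasites and bacteria, had the highest TPM in each macrophage group. It stood at 314, 241 and 170.4 CPM in HPV- MEER, 474, 377 and 394 CPM in HPV+ MEER and 80.2, 92.7 and 110.2 CPM in SCCVII macrophages, with no overlap between groups. Gbp2 was higher in HPV+ than HPV- MEER macrophages by 0.81 ± 0.2 log2 units (adjusted p = 0.0089) and lower in SCCVII than HPV- MEER macrophages (log2 change -1.37 ± 0.2, adjusted p = 0.0007). Without library 4 of HPV- MEER the HPV difference was 0.61 (adjusted p = 0.0073) and the SCCVII change -1.57 ± 0.15 (adjusted p = 1.9e-05). With all 23 libraries in 1 edgeR fit the HPV difference was not called (0.78 ± 0.35, adjusted p = 0.12).

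Gbp5, which promotes inflammasome assembly, was at 77.1, 75.0 and 35.7 CPM in HPV- MEER, 117, 96.1 and 99.5 CPM in HPV+ MEER and 30.3, 35.1 and 36.2 CPM in SCCVII macrophages. Library 4 of HPV- MEER lay within the SCCVII range, and HPV+ MEER libraries lay above all others. The rise in HPV+ MEER macrophages was 0.76 ± 0.24 log2 units (adjusted p = 0.025). That call ended without HPV+ MEER library 1 (0.67, adjusted p = 0.082) or library 3 (0.8, adjusted p = 0.052), while without HPV- MEER library 4 it was 0.48 ± 0.1 (adjusted p = 0.0021). In SCCVII against HPV- MEER macrophages Gbp5 changed by -0.9 ± 0.24 (adjusted p = 0.016), a call that ended without HPV- MEER library 1 (-0.72, adjusted p = 0.055) or SCCVII library 1 (-0.83, adjusted p = 0.064). Without HPV- MEER library 4 the SCCVII change was -1.18 ± 0.1 (adjusted p = 6.9e-06). With all 23 libraries in 1 fit neither the HPV+ MEER nor the SCCVII change was called (0.74, adjusted p = 0.35, and -0.89, adjusted p = 0.29).

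Gbp3 and Gbp7 are neighbours of Gbp2 on the chromosome. Gbp3 averaged 103 ± 32.8 (SD, n = 3), 141 ± 10.1 and 52.1 ± 5.41 CPM in HPV- MEER, HPV+ MEER and SCCVII macrophages, and Gbp7 averaged 159 ± 47.4, 201 ± 12.3 and 75.7 ± 5.54 CPM. Between HPV+ and HPV- MEER macrophages neither was called (Gbp3 0.49 ± 0.2, adjusted p = 0.067, and Gbp7 0.37 ± 0.18, adjusted p = 0.13), though Gbp3 passed without HPV- MEER library 1 (0.72, adjusted p = 0.011) and with DESeq2 (0.52, adjusted p = 0.023), and Gbp7 without HPV- MEER library 2 (0.53, adjusted p = 0.047). Without HPV- MEER library 4 both changes were smaller, at 0.26 for Gbp3 (adjusted p = 0.065) and 0.14 for Gbp7 (adjusted p = 0.15). Against HPV- MEER, SCCVII macrophages had log2 changes of -0.99 ± 0.2 for Gbp3 (adjusted p = 0.0037) and -1.09 ± 0.19 for Gbp7 (adjusted p = 0.0015). Without HPV- MEER library 4 these SCCVII changes were -1.22 for Gbp3 (adjusted p = 1.2e-05) and -1.31 for Gbp7 (adjusted p = 5.8e-07). With all 23 libraries in 1 edgeR fit the Gbp3 call ended (-0.98, adjusted p = 0.1).

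Of the immunity-related GTPases, Irgm1, a regulator that keeps the other GTPases off the cell's own membranes, averaged 95.1 ± 15.9, 101 ± 13.8 and 80.6 ± 6.31 CPM in HPV- MEER, HPV+ MEER and SCCVII macrophages, and Igtp (Irgm3), a second regulator, 78.8 ± 16.8, 88.0 ± 15.2 and 77.9 ± 5.61 CPM. Neither passed the test against HPV- MEER in either model. The log2 changes in HPV+ MEER were 0.11 ± 0.13 for Irgm1 and 0.19 ± 0.16 for Igtp, and those in SCCVII -0.26 ± 0.13 and -0.03 ± 0.16. Without HPV- MEER library 4, the HPV+ MEER change of Irgm1 was -0.01, and Irgm1 in SCCVII macrophages passed at -0.37 ± 0.12 (adjusted p = 0.027). Igtp was then at 0.03 in HPV+ MEER (adjusted p = 0.84) and -0.18 in SCCVII macrophages (adjusted p = 0.28).

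Iigp1, the effector that damages parasite vacuoles, was at 134, 118 and 68.5 CPM in HPV- MEER, 89.2, 93.0 and 71.2 CPM in HPV+ MEER and 54.8, 69.5 and 80.1 CPM in SCCVII macrophages. Each pair of groups overlapped, HPV- MEER with the other 2 through its library 4, and HPV+ MEER with SCCVII without it. The SCCVII difference was called at -0.67 ± 0.23 (adjusted p = 0.045), but it ended when HPV- MEER library 1 (-0.47, adjusted p = 0.16) or 2 (-0.6, adjusted p = 0.11), or SCCVII library 1 (-0.53, adjusted p = 0.15), 2 (-0.68, adjusted p = 0.1) or 3 (-0.8, adjusted p = 0.053), was left out, or with all 23 libraries in 1 fit (-0.65, adjusted p = 0.44). Without HPV- MEER library 4 the call held, at -0.9 ± 0.15 (adjusted p = 0.00082). The HPV+ MEER change was -0.31 ± 0.23 (adjusted p = 0.29), and without HPV- MEER library 4 Iigp1 fell by 0.55 ± 0.15 on the log2 scale (adjusted p = 0.012).

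Irf1 was at 163, 134 and 114 CPM in HPV- MEER, 213, 185 and 177 CPM in HPV+ MEER and 94.6, 112 and 132 CPM in SCCVII macrophages. HPV+ MEER libraries were above all others, and the other 2 groups overlapped. Irf1 rose by 0.51 ± 0.15 log2 units in HPV+ MEER (adjusted p = 0.018) but not without HPV+ MEER library 1 (0.42, adjusted p = 0.07). Without HPV- MEER library 4 the rise was 0.4 ± 0.14 (adjusted p = 0.036). In SCCVII macrophages the change was -0.3 ± 0.15 (adjusted p = 0.14), and it passed without HPV- MEER library 4 (-0.41, adjusted p = 0.033).

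By count, HPV+ MEER macrophages had 4 of 10 members higher and 0 lower than HPV- MEER macrophages (median log2 change 0.43), where 48.7% of all 14085 genes tested passed (22.8% higher and 25.9% lower). Without HPV- MEER library 4 the count was 4 higher and 2 lower (Cxcl10 and Iigp1), and without HPV+ MEER library 1 it was 2 higher. SCCVII macrophages had 7 lower and 0 higher than HPV- MEER macrophages (median -0.86), where 39.2% of genes passed (18.7% higher and 20.5% lower). Fits that left out 1 library gave 5 to 9 lower, and Irgm1 and Irf1 were also lower without HPV- MEER library 4. These comparisons share the HPV- MEER libraries. Against HPV+ MEER macrophages, SCCVII macrophages had 7 lower and 0 higher (median -1.14), where 63.2% passed (32.2% higher and 30.9% lower). The largest of these differences were in Cxcl9 (-2.84 ± 0.31) and Gbp2 (-2.18 ± 0.21), while Cxcl10 (-0.45 ± 0.2, adjusted p = 0.071), Igtp and Iigp1 did not pass. Cxcl10 libraries of these groups did not overlap, and it passed with DESeq2 (-0.48, adjusted p = 0.028). Irgm1 passed at -0.36 ± 0.13 (adjusted p = 0.035), and that call ended without HPV+ MEER library 1 (-0.25, adjusted p = 0.14) or 2 (-0.38, adjusted p = 0.061), or SCCVII library 2 (-0.3, adjusted p = 0.12) or 3 (-0.36, adjusted p = 0.081), or with all 23 libraries in 1 fit (-0.32, adjusted p = 0.36).

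Scaling bears on the HPV contrast. With library totals alone, the log2 ratio of HPV+ to HPV- MEER macrophages moved by -0.23 on average over 9083 genes at a mean of 10 CPM or more. The ratio of group means was then 0.94 for Cxcl9, 0.56 for Gbp2, 0.53 for Gbp5 and 0.26 for Irf1 in log2 units, all still positive. Irgm1 (0.09 to -0.14) and Igtp (0.16 to -0.06) turned sign. Between SCCVII and HPV- MEER macrophages the shift was -0.02, and between SCCVII and HPV+ MEER macrophages it was 0.21, which turned Igtp from -0.18 to 0.03. In the other comparisons it ran from -0.47 (HPV+ MEER macrophages against line) to 0.27 (HPV- MEER colonies against macrophages), and no member's ratio there turned sign on library totals.

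**Figure D3:**
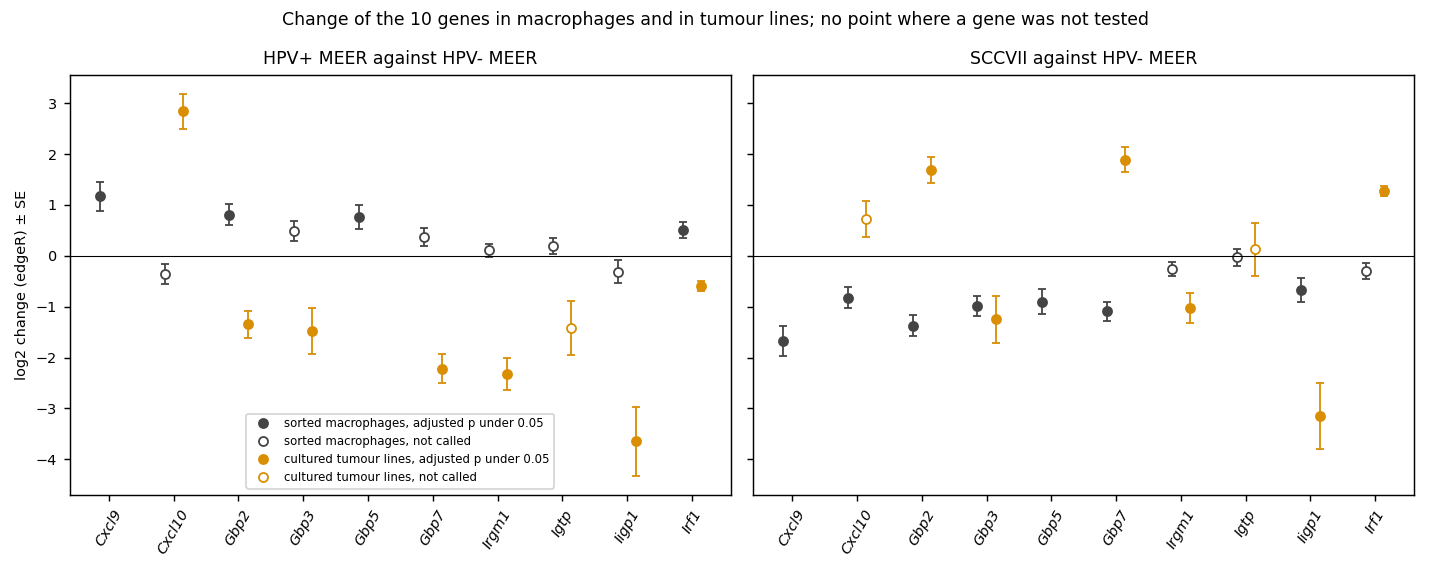
Log2 change (edgeR, ± SE) of the 10 members in HPV+ MEER (left) and SCCVII (right) against HPV- MEER, in sorted macrophages (black) and in cultured lines (orange). Filled points had an adjusted p under 0.05, open points did not, and genes with no point were not tested. In the left panel Cxcl10 lies below 0 in macrophages (-0.36) and at 2.84 in the lines, while Gbp2 lies at 0.81 and -1.35.

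The pathway upstream of the members was read from lists of its genes. Ifng itself was at 3.66, 1.71 and 1.91 CPM in HPV- MEER macrophages, 9.35, 4.51 and 10.5 CPM in HPV+ MEER macrophages, and 0.0685, 0 and 0.171 CPM in SCCVII macrophages. It was higher in HPV+ than HPV- MEER macrophages by 1.76 ± 0.48 log2 units (adjusted p = 0.014) and lower in SCCVII (adjusted p = 0.00053), for which no fold is given because the 3 libraries held 2, 0 and 5 counts. Ifngr2, the signalling chain of the receptor, fell by 0.59 ± 0.07 log2 units in HPV+ MEER macrophages (adjusted p = 9.8e-05). Jak2 rose there by 1.94 ± 0.14 (adjusted p = 5.8e-06).

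Feedback and class II genes were read in the same way. Socs1, the inhibitor that interferon-gamma itself induces, was at 8.84, 7.81 and 6.98 CPM in HPV- MEER, 26.4, 32.0 and 30.7 CPM in HPV+ MEER and 2.91, 3.17 and 3.86 CPM in SCCVII macrophages, without overlap. Its log2 changes were 1.94 ± 0.13 (adjusted p = 4.9e-06) and -1.27 ± 0.14 (adjusted p = 0.00011). Ciita, the switch of MHC class II genes, changed by 2.14 ± 0.33 (adjusted p = 0.00059) and -1.66 ± 0.33 (adjusted p = 0.0034). Of 6 inhibitors, 3 were higher and 0 lower in HPV+ MEER macrophages, with Socs3 at 2.24 ± 0.28. Of all genes 48.7% passed there (22.8% higher and 25.9% lower). In SCCVII macrophages 1 inhibitor was higher and 3 were lower, where 39.2% of all genes passed (18.7% higher and 20.5% lower). A list of 6 genes held Ifng, its receptor chains, Jak1, Jak2 and Cxcr3, which is the receptor of the member chemokines and not upstream of them. It divided 3 higher and 2 lower in HPV+ MEER, and 0 and 4 in SCCVII macrophages, beside the same shares of all genes. Cxcr3 was one of the lower genes in both, at 3.07 CPM in HPV- MEER, 0.491 in HPV+ MEER (-2.6 ± 0.35, adjusted p = 0.00028) and 0.868 in SCCVII macrophages (-1.84 ± 0.33, adjusted p = 0.002).

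Markers of other cells also moved with the models. The 10 T-cell genes summed to 53.4 to 85.6 CPM in HPV- MEER, 50.7 to 90.9 in HPV+ MEER and 8.1 to 22.8 in SCCVII macrophages, and 0 of the 10 were at 0 in any of the 3 groups. The 9 NK-cell genes summed to 38.8 to 73.2, 87.2 to 189 and 7.11 to 12.2 CPM, with none at 0. In SCCVII macrophages 7 of these 9 and 6 of the 10 T-cell genes averaged under 1 CPM. Of the NK list the HPV+ MEER line itself held Eomes at 50.7 CPM, while Ncr1, Klrd1, Prf1, Gzma, Gzmb and Nkg7 were at 0 there. The 7 dendritic-cell genes summed to 15.3 to 22.3, 71.5 to 204 and 5.78 to 9.21 CPM, and the 7 epithelial genes to 76.5 to 153, 433 to 559 and 106 to 129 CPM. The 5 endothelial genes summed to 26.6 to 44.5, 151 to 182 and 18.8 to 23.9 CPM, and the 5 mast-cell genes to 3.52 to 4.45, 9.93 to 20.1 and 0.264 to 0.89 CPM. The 5 progenitor genes summed to 6.35 to 7.55, 12.9 to 23.4 and 4.07 to 5.65 CPM. The NK-cell, dendritic, endothelial, mast-cell and progenitor sums thus had the order of Cxcl9 and Gbp2, with no overlap between groups. Of the mast-cell genes, 4 averaged under 1 CPM in each MEER group and all 5 in SCCVII, and Kit is also in the progenitor list. Of 4 endothelial genes tested, 2 were higher and 1 lower in HPV+ MEER, and 1 was higher and 3 lower in SCCVII macrophages. Of 4 progenitor genes tested, 1 was higher and 0 lower in HPV+ MEER, and 1 was higher and 2 lower in SCCVII. For 9 NK-cell genes the counts were 5 and 0, and 0 and 6. For 6 dendritic genes tested they were 4 and 0, and 0 and 2. Of all genes 22.8% were higher and 25.9% lower in HPV+ MEER, and 18.7% and 20.5% in SCCVII macrophages. The part of such other cells in the levels of Ifng or of the members was not tested.

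**Figure D4:**
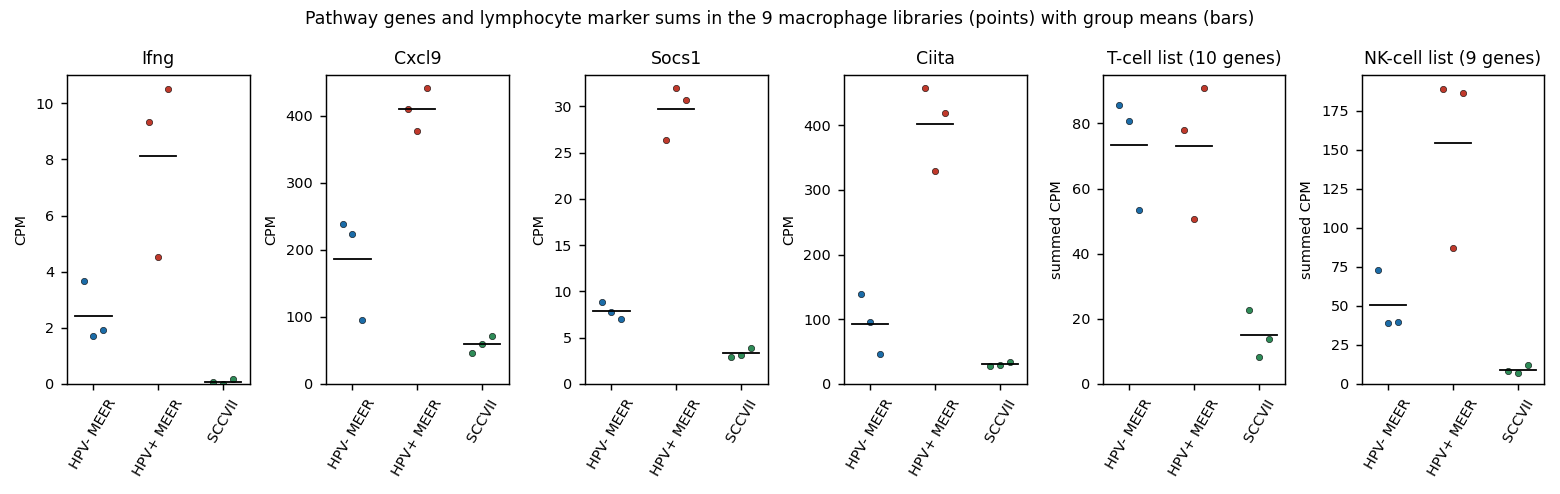
Ifng, Cxcl9, Socs1 and Ciita in CPM, and the summed CPM of T-cell and NK-cell marker lists, in the 9 macrophage libraries. Points are libraries and horizontal bars are group means. HPV+ MEER libraries are highest for the 4 genes, SCCVII libraries lowest, and the T-cell sums of both MEER groups overlap.

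Further targets of the pathway were counted from a list of their own. Of 15 tested (antigen processing, chemokine and inflammasome genes), 10 were higher and 1 lower in HPV+ than HPV- MEER macrophages, beside 22.8% and 25.9% of all genes, with a median log2 change of 0.47. In SCCVII against HPV- MEER macrophages, where 18.7% of all genes were higher and 20.5% lower, 1 was higher and 2 were lower. The median was -0.09, beside -0.86 for the members. The one that rose was Cxcl11, the third ligand of Cxcr3, at 19.9 against 2.79 CPM (2.82 ± 0.3, adjusted p = 9.6e-05). The lowest was AW112010 (-2.5 ± 0.29, adjusted p = 0.00015). Of 16 genes of the type I interferon response, 5 rose and 5 fell in HPV+ MEER macrophages, and 5 rose and 0 fell in SCCVII macrophages, led by Ifi44 (162 against 5.2 CPM, 4.94 ± 0.12, adjusted p = 6.5e-09). The shares of all genes that rose and fell were again 22.8% and 25.9% for HPV+ MEER, and 18.7% and 20.5% for SCCVII.

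Among 11 related GTPase genes the changes spread from large rises to large falls. Of all genes tested, 22.8% were higher and 25.9% lower in HPV+ against HPV- MEER macrophages, and 18.7% and 20.5% in SCCVII against HPV- MEER macrophages. In HPV+ against HPV- MEER macrophages 6 of the 11 were higher and 1 lower, from Gbp11 (2.2 ± 0.31, adjusted p = 0.00034) to Irgm2 (-0.74 ± 0.12, adjusted p = 0.00079). In SCCVII against HPV- MEER macrophages 2 of the 11 were higher and 5 lower, from Gbp10 (up from 0.826 CPM, 4.33 ± 0.46) to Gvin1 (1.48 against 90.3 CPM, -5.94 ± 0.3). The C3H/HeJ reads were quantified against a genome built from C57BL/6, and the part of strain sequence in such differences was not tested. Reads of near-identical genes can be split between them: Gbp3, Gbp7, Igtp and Irf1 had counts that were not whole in 21 or 22 of 23 libraries. Igtp overlaps exons of Irgm2, and Irf1 those of Gm17334, so their values are less certain than those of Cxcl9, whose counts were whole in all libraries.

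**Figure D5:**
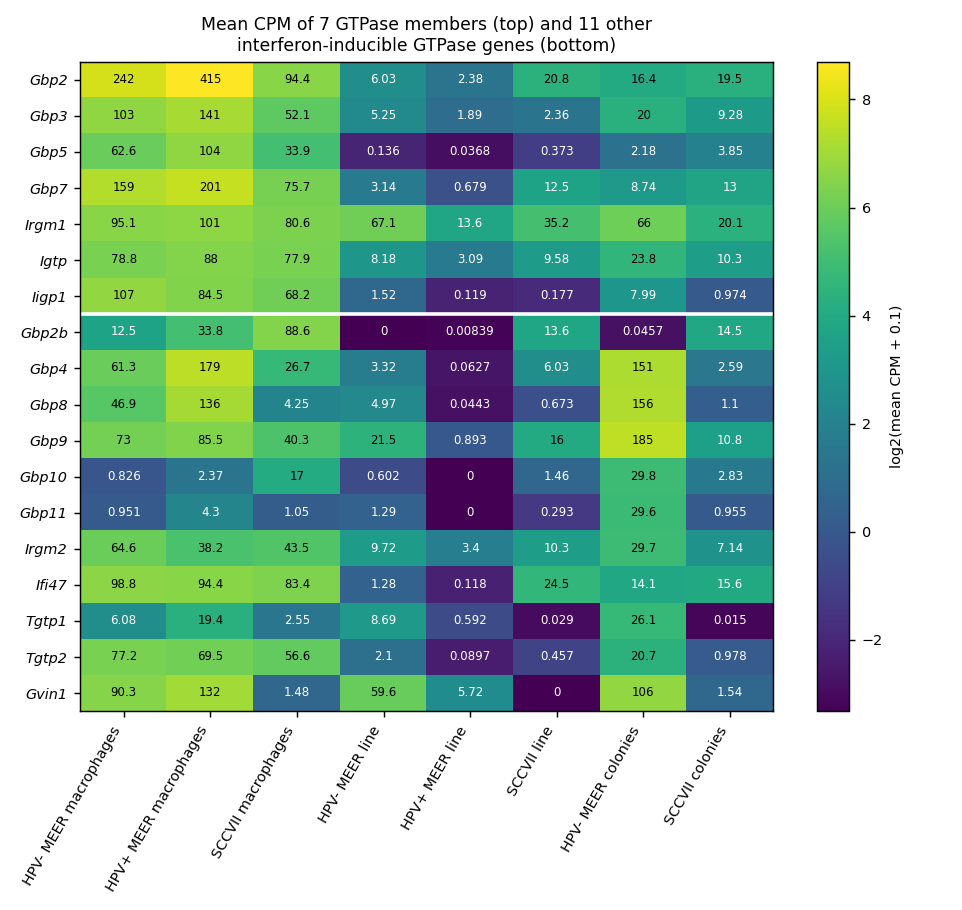
Mean CPM of the 7 GTPase members (top) and 11 related GTPase genes (bottom) in the 8 groups, coloured by log2(mean CPM + 0.1) with the mean printed in each cell. The related genes are low or at 0 in the HPV+ MEER line and vary most between models, for example Gvin1 at 90.3 CPM in HPV- MEER macrophages and 1.48 CPM in SCCVII macrophages.

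In the cultured lines the order of the models changed. As aliquots of 1 line may differ by handling alone, p-values between lines reflect how far aliquots scatter, and nothing here tells whether that scatter is technical. Cxcl9 was all but silent, with 2, 3 and 18 counts in total over the 3 libraries of HPV- MEER, HPV+ MEER and SCCVII, and Gbp5 had 15, 4 and 37 counts. Both were below the filter for the line comparisons, so 8 members were tested.

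Cxcl10 was at 1.55, 0.903 and 0.637 CPM in the HPV- MEER line, 5.22, 7.85 and 9.03 CPM in the HPV+ MEER line and 2.14, 1.77 and 1.46 CPM in the SCCVII line. It was higher in the HPV+ than the HPV- MEER line by 2.84 ± 0.35 log2 units (adjusted p = 0.00012), and all HPV+ MEER aliquots lay above the other 6. Every other called member went the opposite way in that comparison: 6 of the 8 tested were lower and 1 higher, where 47% of 14396 genes passed (23.2% higher and 23.9% lower). Irgm1 was at 71.0, 66.0 and 64.2 CPM in HPV- MEER and 5.85, 17.7 and 17.1 CPM in HPV+ MEER aliquots (-2.32 ± 0.31, adjusted p = 0.00021). Gbp7 was at 2.93, 2.33 and 4.16 against 0.57, 0.889 and 0.579 CPM (-2.22 ± 0.28, adjusted p = 0.00012). Irf1 was at 29.0, 28.7 and 26.4 against 18.3, 20.1 and 17.9 CPM, a smaller fall of 0.59 ± 0.1 log2 units (adjusted p = 0.00069).

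The other members were low in both MEER lines. Gbp2 (6.03 against 2.38 CPM, -1.35 ± 0.26), Gbp3 (5.25 against 1.89 CPM, -1.48 ± 0.46) and Iigp1 (1.52 against 0.119 CPM, -3.65 ± 0.67) were lower in HPV+ MEER. Without HPV- MEER aliquot 3 the Iigp1 change was -2.81 (adjusted p = 0.0045). Igtp (8.18 against 3.09 CPM, -1.42 ± 0.53) missed the threshold at adjusted p = 0.051, and passed with DESeq2 (adjusted p = 0.019), with no low-count filter (0.025) and with all 23 libraries in 1 fit (0.022). HPV+ MEER aliquot 1 was low for Igtp, at 0.57 CPM against 3.67 and 5.03, and the change passed without it (-0.93, adjusted p = 0.014) and without HPV+ MEER aliquot 3 (-1.94, adjusted p = 0.024). The Gbp3 call (adjusted p = 0.023) ended without HPV- MEER aliquot 3 (-1.22, adjusted p = 0.08) or HPV+ MEER aliquot 3 (-1.37, adjusted p = 0.07), and the change was -2.19 without HPV+ MEER aliquot 2. Of the 11 related GTPases 10 were lower in the HPV+ MEER line and 0 higher, beside 23.9% and 23.2% of all genes. The median log2 change of the 11 was -4.48.

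The SCCVII line was mixed against HPV- MEER, with 3 of 8 members higher and 3 lower, where 58.8% of genes passed (27.2% higher and 31.6% lower). Irf1 stood at 71.4, 70.8 and 75.6 CPM in SCCVII aliquots (1.28 ± 0.1, adjusted p = 1.9e-06), Gbp2 at 20.8, 21.0 and 20.7 CPM (1.69 ± 0.25, adjusted p = 0.0002) and Gbp7 at 12.1, 12.1 and 13.1 CPM (1.89 ± 0.25, adjusted p = 9.8e-05). In each of these 3 genes SCCVII aliquots were above all MEER aliquots. Iigp1 (0.177 against 1.52 CPM, -3.15 ± 0.64), Irgm1 (35.2 against 67.1 CPM, -1.03 ± 0.3) and Gbp3 (2.36 against 5.25 CPM, -1.25 ± 0.46, adjusted p = 0.038) were lower. The Gbp3 call held in 1 of the 6 fits that each left out an aliquot, that without HPV- MEER aliquot 1, with changes in the other 5 from -1.42 (without SCCVII aliquot 1) to -0.97 (without HPV- MEER aliquot 3). Without HPV- MEER aliquot 3 the Iigp1 change was -2.3 (adjusted p = 0.0073). Cxcl10 was not called (0.72, adjusted p = 0.1), but it passed without HPV- MEER aliquot 1 (1.13, adjusted p = 0.016). Among the further targets 12 of 13 were higher in the SCCVII line and 0 lower, for example the immunoproteasome gene Psmb8 (named after its values were seen) at 52.3 against 0.533 CPM.

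Against HPV+ MEER, the SCCVII line had 5 of 8 members higher and Cxcl10 lower (-2.12 ± 0.33, adjusted p = 0.00028), where 64% of genes passed (30% higher and 34.1% lower). Gbp7 differed most (12.5 against 0.679 CPM, 4.1 ± 0.28), then Gbp2 (3.04 ± 0.26), Irf1 (1.86 ± 0.1), Igtp (1.55 ± 0.54, adjusted p = 0.027) and Irgm1 (1.29 ± 0.31). The Igtp call ended without HPV+ MEER aliquot 2 (1.69, adjusted p = 0.051) or SCCVII aliquot 1 (1.52, adjusted p = 0.059), 2 (1.58, adjusted p = 0.052) or 3 (1.55, adjusted p = 0.056).

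Between macrophages and the line of the same model, all 10 members were higher in macrophages in each of the 3 models. Of all 15835 genes tested, 76.1% passed in HPV- MEER (38.7% higher, 37.4% lower), 78.8% in HPV+ MEER (39.6% higher, 39.1% lower) and 73% in SCCVII (37.4% higher, 35.5% lower). Libraries of both kinds did not overlap for any member, nor for 76%, 79.9% and 82.7% of genes in these models. The gap ran from Irgm1 in HPV- MEER (95.1 against 67.1 CPM, 0.62 ± 0.26, adjusted p = 0.036) to Cxcl9, for which no fold is given because the MEER lines held only 2 and 3 counts. Irf1 and Irgm1 were closest in SCCVII, at 113 against 72.6 CPM (0.77 ± 0.13) and 80.6 against 35.2 CPM (1.33 ± 0.26). The Irgm1 call in HPV- MEER ended without macrophage library 1 (0.5, adjusted p = 0.12) or 2 (0.63, adjusted p = 0.061) or any line aliquot (0.6 to 0.66, adjusted p = 0.059 to 0.082), or with all 23 libraries in 1 fit (0.5, adjusted p = 0.095).

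The difference between HPV+ and HPV- MEER was itself tested for being unequal in macrophages and lines. It was unequal for 9 of 10 members, where 41% of 15835 genes passed (19.4% more positive and 21.6% more negative in macrophages). For 8 members the macrophage change was the more positive, from Irf1 (1.11 ± 0.18, adjusted p = 0.00013) to Iigp1 (3.37 ± 0.75, adjusted p = 0.0018, and 2.48 without HPV- MEER aliquot 3). Gbp3 (1.99 ± 0.49) was at 2.67 without HPV+ MEER aliquot 2. For Cxcl10 it was the more negative (-3.22 ± 0.38, adjusted p = 7e-06). A pair of these calls was less steady. Gbp5 (2.61 ± 0.94, adjusted p = 0.036) rests on lines with 15 and 4 counts and ended in 4 of 12 fits that left out 1 library: without HPV- MEER aliquot 3 (2.01) or HPV+ MEER aliquot 1 (3.02), 2 (2.09) or 3 (2.9). Igtp (1.6 ± 0.55, adjusted p = 0.029) ended without HPV- MEER aliquot 3 (1.37, adjusted p = 0.075) or HPV+ MEER macrophage library 1 (1.45, adjusted p = 0.07). With all 23 libraries in 1 fit neither was called (2.56, adjusted p = 0.19, and 1.56, adjusted p = 0.069).

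For SCCVII against HPV- MEER 7 of 10 members were unequal, where 43.6% of genes passed (19.8% more positive, 23.9% more negative). In 6 the macrophage change was the more negative: Cxcl9 (-4.67 ± 1.3), Gbp2 (-3.13 ± 0.32), Gbp7 (-3.03 ± 0.29), Gbp5 (-2.26 ± 0.61), Irf1 (-1.64 ± 0.18) and Cxcl10 (-1.63 ± 0.41). For Iigp1 it was the more positive (2.43 ± 0.71, adjusted p = 0.011, and 1.55 without HPV- MEER aliquot 3). The Cxcl9 value rests on 2 counts in the HPV- MEER line and was -7.14 without HPV- MEER aliquot 2 or -4.07 without aliquot 3, and Gbp5 was at -2.86 without aliquot 3. With all 23 libraries in 1 fit the calls of Cxcl10 (-1.62, adjusted p = 0.072) and Gbp5 (-2.28, adjusted p = 0.1) ended.

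After 9 days of culture, colonies held less of every member than sorted macrophages. All 10 were lower in HPV- MEER colonies, where 62.7% of 16238 genes passed (34% higher, 28.7% lower), and all 10 in SCCVII colonies, where 51.9% passed (29.7% higher, 22.3% lower). No member's colony and macrophage libraries overlapped, nor did those of 70.1% and 75.6% of genes. Cxcl9 was lowest: colonies held 0.164, 0.0585 and 0 CPM (HPV- MEER) and 0.156 and 0.18 CPM (SCCVII), or 11 and 10 counts over each group. Irgm1 changed least in HPV- MEER, at 74.7, 66.7 and 56.4 CPM (-0.54 ± 0.17, adjusted p = 0.021), a call that ended without colony library 2 (-0.47, adjusted p = 0.076), colony library 3 (-0.35, adjusted p = 0.1) or macrophage library 1 (-0.41, adjusted p = 0.085), or with all 23 libraries in 1 fit (-0.53, adjusted p = 0.081). Irf1 changed least in SCCVII, at 52.6 and 81.6 CPM (-0.75 ± 0.26, adjusted p = 0.036), and that call ended without colony library 1 (-0.46, adjusted p = 0.23) or macrophage library 2 (-0.76, adjusted p = 0.072) or 3 (-0.62, adjusted p = 0.1). The Gbp5 call in SCCVII (-3.12 ± 0.92, adjusted p = 0.019) ended without colony library 1 (-2.35, adjusted p = 0.083). Some large falls turned on 1 colony. In HPV- MEER, without colony library 1, Cxcl10 was at -6.14 against -5.05 with it, Gbp5 at -5.93 against -4.79 and Gbp7 at -4.76 against -4.17. In SCCVII, without colony library 2, Iigp1 was at -9.16 against -6.08, Gbp2 at -3.28 against -2.27, Gbp3 at -3.41 against -2.48 and Gbp5 at -4.96. Without SCCVII colony library 1, Gbp2 was at -1.68 and Iigp1 at -5.2.

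Colony levels in CPM stood nearer to those of the cultured lines, a comparison for which values are given side by side with no test. In SCCVII the ranges of colony and line libraries overlapped for 6 of 10 members: Irf1 averaged 67.1 in colonies and 72.6 CPM in the line, Gbp2 19.5 and 20.8, Gbp7 13.0 and 12.5, and Igtp 10.3 and 9.58. Gbp3 (9.28 against 2.36 CPM) and Gbp5 (3.85 against 0.373 CPM) lay above the line, and Cxcl10 (0.678 against 1.79 CPM) and Irgm1 (20.1 against 35.2 CPM) below it. In fold terms Gbp5 was no nearer to the line (10.3 times its level) than to SCCVII macrophages (8.7 times lower). In HPV- MEER the ranges overlapped for 2 of 10, Irgm1 (66.0 and 67.1 CPM) and Cxcl9, and the other 8 lay above the line range in every colony library, from 1.59 times for Irf1 to Gbp5 at 2.18 against 0.136 CPM. Across 13336 genes, log2 values of HPV- MEER colony libraries 1, 2 and 3 correlated at 0.788, 0.876 and 0.894 with the line mean and at 0.781, 0.58 and 0.556 with the macrophage mean. For SCCVII colony libraries 1 and 2 these were 0.804 and 0.893, and 0.712 and 0.642. Genes are not independent replicates, so these are descriptions. The progenitor list summed to 1003 and 1169 CPM in SCCVII colonies and 1013 to 1038 CPM in the SCCVII line, and the fibroblast list to 2778 and 4094 CPM against 2660 to 2793 CPM. Macrophage markers summed to 3198 CPM in HPV- MEER colony library 1 and to 81.6 and 34.8 CPM in libraries 2 and 3. Cells grown from macrophages and cells of other kinds in the cultures cannot be told apart in these sums, and their part in the members' levels was not tested.

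SCCVII colonies had 4 of 10 members lower and 0 higher than HPV- MEER colonies, where 40.4% of genes passed (20.5% higher, 19.9% lower). Irgm1 (20.1 against 66.0 CPM, -1.72 ± 0.2, adjusted p = 0.00037), Igtp (-1.21 ± 0.32, adjusted p = 0.016), Cxcl10 (-2.96 ± 0.75, adjusted p = 0.013) and Iigp1 (-2.97 ± 0.77, adjusted p = 0.014) were lower. With 2 SCCVII colonies, the last 3 moved with single libraries. Cxcl10 missed the threshold without SCCVII colony 1 (-2.7, adjusted p = 0.083) or 2 (-3.3, adjusted p = 0.055) and was at -1.88 without HPV- MEER colony 1. Igtp missed it without SCCVII colony 1 (-0.86, adjusted p = 0.11) and with all 23 libraries in 1 fit (-1.2, adjusted p = 0.054). Iigp1 was at -2.09 without SCCVII colony 1 and at -6.04 without colony 2. Gbp3 (-1.1 ± 0.43, adjusted p = 0.066) passed without SCCVII colony 2 (-2.02, adjusted p = 0.0098) and with DESeq2 (-1.15, adjusted p = 0.011). Without HPV- MEER colony 1, the library with the most macrophage markers, Gbp7 (1.13 ± 0.33, adjusted p = 0.02) and Irf1 (0.68 ± 0.25, adjusted p = 0.048) were higher in SCCVII colonies, and Irf1 also without SCCVII colony 1 (0.88, adjusted p = 0.04) and with all 23 libraries in 1 fit (0.58, adjusted p = 0.012). The change from macrophage to colony differed between SCCVII and HPV- MEER for 1 member, Irgm1 (-1.47 ± 0.26, adjusted p = 0.0047), where 24.1% of genes passed (13.5% more positive, 10.6% more negative), and without HPV- MEER colony 1 Cxcl9, Gbp2, Gbp5, Gbp7 and Irf1 passed in the positive direction.

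Related GTPases were divided in HPV- MEER colonies. Of 11, 5 were higher than in the macrophages and 4 lower, beside 34% and 28.7% of all genes, while 0 of the 10 members were higher. Median log2 changes were 1.27 for the 11 and -3.82 for the members. Gbp4, Gbp8 and Gbp9 (named after their values were seen) averaged 151, 156 and 185 CPM in colonies against 61.3, 46.9 and 73.0 CPM in macrophages, with log2 changes of 1.27 ± 0.4, 1.71 ± 0.36 and 1.31 ± 0.41. Gbp10 (29.8 against 0.826 CPM) and Gbp11 (29.6 against 0.951 CPM) were the others. Gbp2 and Gbp5, members of the same family, were at 16.4 and 2.18 CPM in these colonies. In SCCVII colonies 0 of the 11 were higher and 9 lower, beside 29.7% and 22.3% of all genes. Ifng was at 0.182, 0.468 and 0.633 CPM in HPV- MEER colonies and at 0 counts in both SCCVII colonies.

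Over the 23 libraries the members tracked one another to different degrees. Pearson's r of each member with the mean z-score of the 10 (each member included in that mean, on log2(CPM + 0.5)) ran from 0.795 for Irgm1 and 0.882 for Cxcl10 to 0.976 for Gbp2. Of 11288 genes ranked, those most like the mean were Ifngr1 (0.98), Trafd1 (0.979), Parp9 (0.978), Cd74 (0.976) and Clec10a (0.976). For Cxcl9 alone they were H2-Aa (0.996), H2-Eb1 (0.995) and Ciita (0.994), and for Irf1 alone Nfkbie (0.979), Rgs2 (0.972) and Nod2 (0.97). The 23 libraries fall into macrophages and the rest, so these r values mainly carry that split and have no test.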

How the data were processed

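RNA was sequenced from TruSeq stranded mRNA libraries, 23 in 8 groups. Per the submitters' processing notes the tools were STAR 2.5.3a, RSEM 1.3.0, FastQC and MultiQC, with the GRCm38 mouse genome. The annotation release and the strand setting of the counting are stated in no source used here. The authors deposited RSEM expected counts per gene, of which 13.1% were not whole numbers because RSEM shares reads between similar transcripts, and these were rounded before testing. The authors also deposited TPM, used here only for levels between genes and for ratios. Of the 36793 genes, 97.0% were matched to GENCODE M21 names by gene or transcript identifier.

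Tests used edgeR 4.0.16 in R 4.3.3 (quasi-likelihood, TMM scaling, filterByExpr with a minimum count of 10 and total of 15, prior count 0.125, Benjamini-Hochberg adjustment over all genes tested, threshold 0.05). One fit each was made for the 9 macrophage libraries, the 9 line libraries, both together, and macrophages with colonies of HPV- MEER and SCCVII. The square root of the common dispersion was 16%, 18.1%, 17.6% and 40.2% in that order. Alternatives were DESeq2 1.42.0 as a test and for size factors, no low-count filter, all libraries in 1 fit, a replicate block, and leaving out each library. In simulated data for HPV+ against HPV- MEER macrophages (14085 genes), the test recovered 11 of 50 genes changed 1.5-fold, 36 of 50 changed 2-fold and 50 of 50 changed 4-fold. It made 10 false calls. The simulation gave every gene the same dispersion and changed far fewer genes than the 6853 called in the data, so these rates may not carry over. Replicate numbers were checked for pairing, and the reported tests treat the samples as unpaired. Floors and counts cover counting error only.

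The members and lists were chosen with earlier results of these data known. Members are given in every comparison. Of the pathway lists, Ifng, its receptors and kinases, Socs1 and Ciita may be given in any case, and otherwise the largest rise and largest fall among called genes in each macrophage comparison. The counts over the list of transcription factors are not reported here. The 5 genes most like the members' mean, and the 3 most like Cxcl9 and Irf1, were taken by Pearson correlation.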

Additional observations from a re-analysis of the deposited data

Results flagged for a closer look

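The HPV+ against HPV- MEER difference was not the same in macrophages as in the cultured lines for 9 members, by a test of the difference between both changes (macrophage minus line, log2). The values were -3.22 for Cxcl10, 2.17 for Gbp2, 1.99 for Gbp3, 2.61 for Gbp5, 2.61 for Gbp7, 2.43 for Irgm1, 1.6 for Igtp, 3.37 for Iigp1 and 1.11 for Irf1. For Cxcl10 the line change was positive and the macrophage change was not called. For Gbp2 and Irf1 the macrophage change was a called rise and the line change a called fall.

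The SCCVII against HPV- MEER difference was unequal in the same way for 7 members. The values were -4.67 for Cxcl9, -1.63 for Cxcl10, -3.13 for Gbp2, -2.26 for Gbp5, -3.03 for Gbp7, 2.43 for Iigp1 and -1.64 for Irf1. For Gbp2 and Gbp7 the macrophage change was a called fall and the line change a called rise. Both sets share the HPV- MEER libraries.

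The change from macrophages to colonies differed between SCCVII and HPV- MEER for Irgm1, at -1.47 on the log2 scale.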

How the results depend on the processing

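Of 1734 values of members recomputed under alternatives, 1604 kept direction and side of the threshold, 65 lost the threshold, 49 passed it newly and 16 turned direction, the last all among values that were not called. Size factors of DESeq2 moved none of 144. With all 23 libraries in 1 fit, genes called in HPV+ against HPV- MEER macrophages numbered 3708 (6853 in the reported fit) with 2 members higher, and in SCCVII against HPV- MEER macrophages 2944 (5527) with 3 members lower. That fit called 1 member higher in SCCVII than HPV- MEER colonies. For the colony change between models (3921 genes called), DESeq2 called 5904 genes with 4 members higher and 4 lower, and the single fit called 4 members higher and 3 lower. Leaving out single libraries gave 2 to 5 members higher and 0 to 2 lower for HPV+ against HPV- MEER macrophages. In SCCVII against HPV- MEER macrophages 5 to 9 members were then lower. For SCCVII against HPV- MEER colonies such fits gave 0 to 2 higher and 2 to 4 lower, and for the colony change 2535 to 6949 genes with 0 to 5 members higher and 1 to 3 lower.

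Replicate pairing was looked for in correlations of deviations from group means. Same-numbered macrophage libraries correlated at -0.027 to 0.128 and differently numbered ones at -0.148 to 0.069, so a weak pairing may be present there. Line aliquots were at -0.183 to 0.093 with the same number and at -0.255 to 0.261 otherwise. The 2 colony pairs, at 0.382 and 0.231, cannot decide it, because the deviations of 2 SCCVII colonies mirror each other. With the replicate number as a block, 133 of 144 values stayed as reported. Only HPV- MEER macrophage library 4 carries the number 4, so the block in effect left it out of the fits with macrophages. HPV+ against HPV- MEER macrophages then had 2 members lower, Cxcl10 (-0.59) and Iigp1 (-0.56), and Irf1 was at 0.37 (adjusted p = 0.064). In the fit without library 4, Cxcl10 was at -0.59 and Iigp1 at -0.55, and Irf1 was still called at 0.4 (adjusted p = 0.036). The block also ended the calls of Gbp3 between SCCVII and HPV- MEER lines (-1.2, adjusted p = 0.06), of Igtp for the unequal HPV change (1.38, adjusted p = 0.066) and of Irf1 in SCCVII colonies (-0.74, adjusted p = 0.097). Newly called were Irgm1 (-0.32, adjusted p = 0.011) and Irf1 (-0.44, adjusted p = 0.043) in SCCVII against HPV- MEER macrophages, Cxcl10 in SCCVII against HPV+ MEER macrophages (-0.45, adjusted p = 0.002) and Igtp between the MEER lines (-1.55, adjusted p = 0.046). The colony change had 1457 genes called with the block, and the SCCVII Gbp3 value below was -0.09.

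Leaving out single libraries also turned the sign of values that were not called. In HPV+ against HPV- MEER macrophages Irgm1 ran from -0.01 (without HPV- MEER library 4 or HPV+ MEER library 1) to 0.23. In SCCVII against HPV- MEER, Igtp ran from -0.18 to 0.12 in macrophages (positive without HPV- MEER or SCCVII library 1) and was at -0.08 in lines without HPV- MEER aliquot 2, with a highest value of 0.37. Gbp3 in SCCVII against HPV+ MEER lines ran from -0.15 (without HPV+ MEER aliquot 1) to 0.95. The unequal change in macrophages and lines ran from -1.75 (without HPV- MEER aliquot 2) to 1.48 for Cxcl9 with HPV status, and from -0.07 (without HPV- MEER aliquot 3) to 0.42 for Gbp3 in SCCVII. Between SCCVII and HPV- MEER colonies, Gbp2 ran from -0.77 to 0.83 and Gbp5 from -1.06 to 1.92, both lowest without SCCVII colony 2. In the colony change, Gbp3 ran from -1.04 to 0.45 and Gbp5 from -0.17 to 2.81. The cause was not tested. Of 80 group levels, 17 moved by more than 1 SD on library totals alone. Depth limits Cxcl9 and Gbp5 in the lines.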
